A study of Mus musculus with 2 samples.

Results

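The 33 genes described here regulate, make, move, export or esterify cholesterol. They were chosen by symbol from a list, and all 33 were found among the 32285 genes of the count matrices. They comprised 4 regulators, 9 enzymes up to squalene, 10 enzymes from squalene to cholesterol, 4 genes of uptake and intracellular transport, 4 of efflux and 2 of esterification. They were measured by single-nucleus RNA-seq (snRNA-seq), which counts the RNA of single nuclei by unique molecular identifiers (UMIs), in 2 libraries of mouse liver nuclei. Both libraries came from male C57BL6/J mice kept for 5 months, from an age of 10 to 12 weeks, on a diet that causes metabolic dysfunction–associated steatohepatitis (MASH). Fat gave 40% and fructose 20% of its energy, and it contained 2% cholesterol. The library labelled Flox came from *Themis* flox/flox mice (titled WT), and the library labelled HKO from *Themis* Alb-Cre mice, in which Cre under the albumin promoter acts in hepatocytes, bred from the flox line. Livers of several animals went into each library, and no value has a replicate. There was no library of chow-fed mice here, so no effect of the diet was measured.

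Cells hold their cholesterol steady through SREBP2, the transcription factor encoded by *Srebf2*. SCAP escorts SREBP2 from the endoplasmic reticulum to the Golgi for cleavage when sterol is low, and the INSIG proteins hold SCAP back when sterol is high. The genes of the synthesis pathway are well-known targets of SREBP2, while *Abca1*, *Abcg1*, *Abcg5*, *Abcg8* and *Mylip* are well-known targets of the liver X receptors, which sense oxysterols. Hepatocytes make cholesterol and secrete it into bile through ABCG5 and ABCG8, and macrophages hand it to lipoproteins through ABCA1 and ABCG1.

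Promoters from RefSeq, on build GRCm38.p6, are shown for the regulators and synthesis enzymes that differed by at least 1.5-fold between the libraries in hepatocytes and had an entry. Each runs 5′ to 3′ on the strand of its gene, from 250 bases before the start site to 50 after it. Capitals mark the letters CCAAT (the NF-Y box) and TCACNCCAC (a sterol regulatory element, SRE) on either strand. Marking the NF-Y box was chosen after the matches were seen, and of the 3 entries for *Insig2* the one with CCAAT letters is given.
Insig1, chr5:28071162-28071461, plus strand: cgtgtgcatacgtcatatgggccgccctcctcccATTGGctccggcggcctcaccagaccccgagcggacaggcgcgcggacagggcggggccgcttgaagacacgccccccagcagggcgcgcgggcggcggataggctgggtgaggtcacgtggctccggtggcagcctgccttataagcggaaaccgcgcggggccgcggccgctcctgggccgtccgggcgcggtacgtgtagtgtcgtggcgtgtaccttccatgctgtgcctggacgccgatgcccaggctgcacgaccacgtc
Insig2, chr1:121332540-121332839, minus strand: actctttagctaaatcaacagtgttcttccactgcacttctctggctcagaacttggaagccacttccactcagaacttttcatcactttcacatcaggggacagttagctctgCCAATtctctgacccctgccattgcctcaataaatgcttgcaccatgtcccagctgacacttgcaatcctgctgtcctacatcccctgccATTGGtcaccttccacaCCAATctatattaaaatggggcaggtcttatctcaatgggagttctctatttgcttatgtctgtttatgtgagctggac
Hmgcs1, chr13:119690101-119690400, plus strand: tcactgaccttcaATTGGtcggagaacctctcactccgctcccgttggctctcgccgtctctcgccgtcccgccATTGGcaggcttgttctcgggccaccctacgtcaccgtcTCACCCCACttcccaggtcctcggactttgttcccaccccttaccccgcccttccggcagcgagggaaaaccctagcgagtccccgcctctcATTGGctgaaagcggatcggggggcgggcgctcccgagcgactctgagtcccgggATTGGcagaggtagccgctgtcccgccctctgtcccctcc
Mvd, chr8:122443373-122443672, minus strand: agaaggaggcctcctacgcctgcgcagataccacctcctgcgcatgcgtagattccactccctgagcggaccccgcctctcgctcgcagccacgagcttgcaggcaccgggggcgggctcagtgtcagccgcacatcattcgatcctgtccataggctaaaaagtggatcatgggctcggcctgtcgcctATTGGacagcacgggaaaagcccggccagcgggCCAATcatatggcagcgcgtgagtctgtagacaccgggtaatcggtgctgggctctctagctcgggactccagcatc
Idi1, chr13:8885356-8885655, plus strand: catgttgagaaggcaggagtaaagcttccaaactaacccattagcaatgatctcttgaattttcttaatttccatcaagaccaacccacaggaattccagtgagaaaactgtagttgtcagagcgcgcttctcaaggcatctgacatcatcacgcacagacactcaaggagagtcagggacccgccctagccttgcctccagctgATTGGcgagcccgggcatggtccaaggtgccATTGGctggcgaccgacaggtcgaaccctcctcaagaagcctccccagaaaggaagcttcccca
Cyp51, chr5:4104648-4104947, minus strand: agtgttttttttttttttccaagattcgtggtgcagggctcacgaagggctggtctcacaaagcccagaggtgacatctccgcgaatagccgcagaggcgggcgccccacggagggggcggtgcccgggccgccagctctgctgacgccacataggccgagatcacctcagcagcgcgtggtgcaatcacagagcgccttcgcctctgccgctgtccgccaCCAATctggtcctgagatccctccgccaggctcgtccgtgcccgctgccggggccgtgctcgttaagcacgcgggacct

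Entries were found for 26 of the 33 genes, 16 of them synthesis enzymes. Among these, SRE letters stood in the promoter of *Hmgcs1* alone, where they began at position -137, counted from the start site at 0, and overlapped no CCAAT letters. SRE letters stood in 1.24% of all 32851 promoters of this length, and in at least 1 promoter of 1.44% of the 27025 genes. CCAAT letters stood in a promoter of 23 of the 26 genes (88.5%) and of 15 of the 16 synthesis enzymes, against 41.1% of all genes and 37.4% of all promoters. The promoter of *Hmgcs1* held 4 of these boxes and that of *Mvk*, the mevalonate kinase, held 5. GC box letters (GGGCGG, either strand) stood in a promoter of 22 of the 26 genes, against 38.2% of all genes and 35.7% of all promoters. A match describes the letters of the window only. Binding was not measured.

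The library labelled Flox held 9363 barcodes and 58171337 UMIs and that labelled HKO 10748 barcodes and 40475938 UMIs, with 27 barcodes in common. After 701 and 920 doublets and nuclei with few genes were removed, 8659 and 9801 nuclei remained. Of these, 5798 and 4463 were hepatocyte-like, with median depths of 7455 and 5839 UMIs, where "like" marks a type named from its marker genes. The 2 hepatocyte-like clusters passed for 6 and 7 of 8 hepatocyte markers. The others were HSC-like (832 and 1193; hepatic stellate cells), macrophage-like (530 and 1414), endothelial-like (774 and 1249), cholangiocyte-like (135 and 548), T cell-like (157 and 296) and B cell-like (78 and 96), and 272 and 411 nuclei of one cluster and 83 and 131 of another stayed unnamed. Counts were summed over the nuclei of a type and are given as CPM, counts per 1e6 UMIs of that type. Pairs of values give the library labelled Flox first, ratios are HKO over Flox unless others are named, and square brackets hold 95% intervals that cover counting error only.

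*Themis* was not lower in hepatocyte-like nuclei of the library labelled HKO. It stood at 163 and 245 CPM there, a ratio of 1.501 [1.45 to 1.55], and at 276 and 350.3 CPM in T cell-like nuclei, a ratio of 1.27 [0.876 to 1.86]. Which part of the gene Cre removes is not given in the sources used here, and 3′ UMIs outside it would not report its loss. The genotypes were therefore not checked by these counts, and every direction below is drawn between libraries named by their labels.

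In hepatocyte-like nuclei, synthesis enzymes stood higher in the library labelled HKO, and efflux genes together differed little. The 19 synthesis enzymes summed to 579 and 779 CPM, a ratio of 1.34 [1.32 to 1.37]. The 9 enzymes up to squalene summed to 129.6 and 219 CPM (ratio 1.69 [1.63 to 1.75]), and the 10 after squalene to 449 and 560.3 CPM, a ratio of 1.246 [1.22 to 1.27]. Without *Fdps*, a choice made after seeing the data, the other enzymes up to squalene had a ratio of 1.36 [1.31 to 1.42]. The 4 efflux genes summed to 685 and 652 CPM, a ratio of 0.953 [0.935 to 0.9704]. The 4 genes of uptake and intracellular transport summed to 669.8 and 667 CPM, a ratio of 0.995 [0.977 to 1.01]. *Npc1* held 29526 of 30876 and 17179 of 18411 UMIs of this sum, which therefore chiefly gives the level of that gene. The group holds no lipoprotein receptor, and *Stard4* in it was called higher, as given below.

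With 1 library per group there was no test, and a gene was called higher or lower when its CPM differed by at least 1.5-fold with at least 50 UMIs over both libraries. By this rule 9 of the 33 genes were higher, against 9.69% of all 13205 genes tested, and 1 was lower, against 12%. The 9 include *Soat1*, on 33 and 32 UMIs, whose hepatocyte-like level reads as background, as given below. Of the 19 synthesis enzymes 6 were higher and 0 lower. The median log2 ratio, with a pseudocount of 1 CPM, was 0.41 for the synthesis enzymes and -0.02 for all genes tested.

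**Figure D1:**
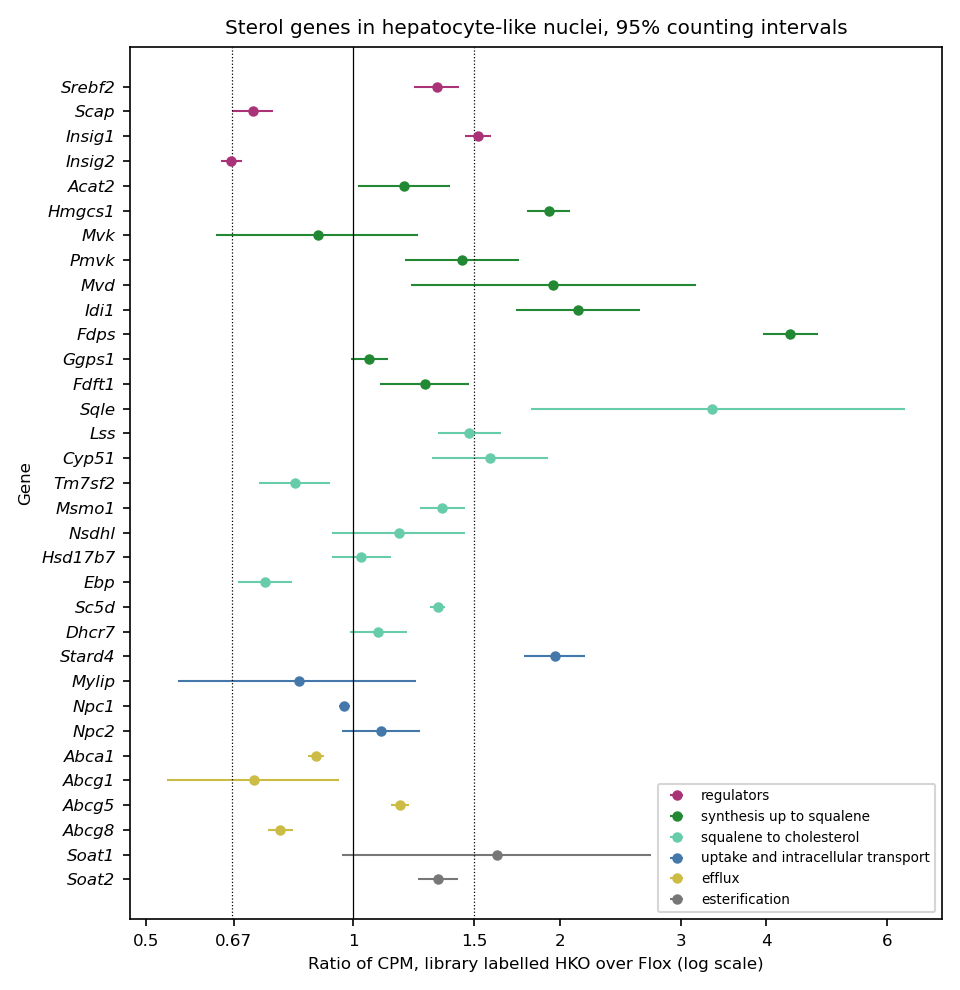
Ratio of CPM in hepatocyte-like nuclei, library labelled HKO over Flox, on a log axis for the 33 genes, with points grouped by role, bars for 95% counting intervals and lines at the 1.5-fold limit. *Fdps*, at 4.33, lies farthest above 1 and *Insig2*, at 0.665, farthest below it.

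Among the regulators, the INSIG genes differed in opposite directions. *Insig1*, itself a target of SREBP2, was measured at 93.6 [90.8 to 96.4] and 142 [138 to 147] CPM, with a ratio of 1.52 [1.46 to 1.59]. *Insig2*, which encodes the other retention protein of SCAP, stood at 252 [247 to 256] and 167 [163 to 172] CPM, a ratio of 0.665 [0.643 to 0.688]. Both were called, close to the limit, and *Insig2* no longer passed it with doublets kept, without *Malat1* and mitochondrial genes, with nuclei thinned to 1000 UMIs (0.684) or with zone classes weighted equally (0.691). *Srebf2* stood at 32.8 and 43.5 CPM, a ratio of 1.32 [1.23 to 1.43]. *Scap* went the other way, at 62.6 and 44.7 CPM, a ratio of 0.714 [0.667 to 0.764]. Neither passed the limit.

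Of the 9 enzymes up to squalene, 4 were called higher, against 9.69% of all genes tested. *Fdps*, the farnesyl diphosphate synthase (GRCm38, chr3:89093588-89101959), had the largest ratio of the 33 genes, at 14.2 [13.1 to 15.3] and 61.5 [58.6 to 64.5] CPM, a ratio of 4.33 [3.96 to 4.75]. After each nucleus was thinned to 1000 UMIs, *Fdps* was detected in 1.33% [1.05 to 1.66] of 5782 and 5.63% [4.97 to 6.35] of 4442 hepatocyte-like nuclei. Before thinning, which left out 16 and 21 shallower nuclei, these shares were 9.503% and 21.98%. In thinned endothelial-like nuclei, the shares were 0.455% [0.09398 to 1.32] and 0.938% [0.305 to 2.18]. Thinning left out 115 and 716 shallower endothelial-like nuclei, where the type had median depths of 1311 and 948 UMIs, and kept 659 and 533. The hepatocyte share thus lay above the endothelial share in both libraries, and the intervals overlapped only in the library labelled Flox. In 514 and 1100 thinned macrophage-like nuclei the shares were 1.36% [0.549 to 2.79] and 1.27% [0.698 to 2.13]. The hepatocyte share thus lay above the macrophage share only in the library labelled HKO. By CPM, *Fdps* stood in macrophage-like nuclei at 0.971 and 0.233 times its hepatocyte-like level. Without *Fdps*, the other synthesis enzymes summed to a ratio of 1.27.

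*Hmgcs1*, the HMG-CoA synthase of the pathway and the gene with the SRE letters shown above, stood at 29.8 and 57.4 CPM, a ratio of 1.93 [1.79 to 2.07]. *Idi1*, the isopentenyl diphosphate isomerase, stood at 3.62 and 7.71 CPM, a ratio of 2.13 [1.73 to 2.62]. *Mvd*, the mevalonate diphosphate decarboxylase, rested on 35 and 41 UMIs and had a ratio of 1.96 [1.21 to 3.16]. The intervals of these genes overlapped one another, and that of *Fdps* lay above all of them. The other 5 enzymes of this stretch stayed within the limit. *Pmvk*, the phosphomevalonate kinase, had a ratio of 1.44 [1.19 to 1.75], *Fdft1*, the squalene synthase, of 1.27 [1.096 to 1.48], and *Acat2*, a thiolase that forms acetoacetyl-CoA, of 1.19 [1.02 to 1.38]. *Ggps1*, which makes geranylgeranyl diphosphate for a side branch, stood at 56.1 and 59.3 CPM, a ratio of 1.06 [0.992 to 1.12]. *Mvk*, on 105 and 56 UMIs, had a ratio of 0.8902 [0.632 to 1.24]. For *Ggps1* and *Mvk* the interval included 1.

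Of the 10 enzymes after squalene, 2 were called higher, against 9.69% of all genes tested. *Cyp51*, the lanosterol demethylase, stood at 4.71 and 7.46 CPM, a ratio of 1.58 [1.303 to 1.93]. *Sqle*, the squalene epoxidase, had a ratio of 3.34 [1.81 to 6.37] on 17 and 34 UMIs. *Lss*, the lanosterol synthase, lay just inside the limit at 1.48 [1.33 to 1.64]. *Sc5d*, a desaturase late in the pathway, held 13446 of the 26697 UMIs of the 19 enzymes in the library labelled Flox and 10709 of 21510 in the other. It stood at 292 and 388 CPM (ratio 1.33 [1.296 to 1.36]), and so weighed most in the group's sum. *Msmo1*, the methylsterol monooxygenase, had a ratio of 1.35 [1.251 to 1.46]. *Nsdhl*, *Hsd17b7* and *Dhcr7*, which catalyse later steps, came to 1.17 [0.932 to 1.46], 1.03 [0.932 to 1.13] and 1.09 [0.989 to 1.197], and each interval included 1. *Ebp*, the sterol isomerase, and *Tm7sf2*, a sterol reductase, lay below 1, at 0.745 [0.6797 to 0.815] and 0.823 [0.731 to 0.926]. Exons of *Tm7sf2* overlap those of *Vps51* on the same strand, so its counts are uncertain.

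Among genes that move and store cholesterol, *Stard4*, a cytosolic sterol carrier, was called higher, at 14.9 and 29.2 CPM and a ratio of 1.97 [1.77 to 2.18]. *Npc1*, which moves cholesterol out of lysosomes, stood at 640.5 and 622 CPM (ratio 0.971 [0.953 to 0.9896]), and its partner *Npc2* at 12.7 and 13.9 CPM, a ratio of 1.099 [0.963 to 1.251]. *Soat2*, the esterification enzyme of hepatocytes, stood at 41.97 and 55.8 CPM, a ratio of 1.33 [1.24 to 1.42]. None of the last 3 passed the limit. *Soat1*, the esterification enzyme of macrophages and other cells, was called higher at 1.62 [0.964 to 2.72], on 33 and 32 UMIs and with an interval that included 1. *Mylip*, a ubiquitin ligase that degrades lipoprotein receptors, had 80 and 40 UMIs, near the level of background as given below, and a ratio of 0.835 [0.556 to 1.23]. Neither value was stable, since with doublets kept the ratio was 3.89 for *Soat1* and 2.15 for *Mylip*, and with each nucleus typed by its own markers 2.76 and 1.61.

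None of the 4 efflux genes passed the limit in hepatocyte-like nuclei, and they did not move together. *Abca1*, which loads cholesterol onto nascent HDL, stood at 321 and 284 CPM, a ratio of 0.883 [0.859 to 0.907]. *Abcg5* and *Abcg8* encode the subunits of a single transporter into bile, and they lay on opposite sides of 1. *Abcg5* stood at 218 and 255 CPM (ratio 1.17 [1.13 to 1.21]), and *Abcg8* at 142 and 111 CPM, a ratio of 0.784 [0.751 to 0.818]. *Abcg1*, the transporter of macrophages, had 165 and 71 UMIs and a ratio of 0.718 [0.536 to 0.954]. Exons of *Abcg5* and *Abcg8* overlap each other on opposite strands, and 6 more of the 33 genes (*Hmgcs1*, *Ggps1*, *Fdft1*, *Lss*, *Cyp51* and *Npc1*) overlap other genes in this way. How the counting used strand is not given in the sources used here.

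Markers of some other cell types also differed between the libraries in hepatocyte-like nuclei. Of the 8 cholangiocyte markers 7 were detected in hepatocyte-like nuclei of each library, and they summed to 51.1 and 87.1 CPM, 0.3003 and 0.863% of their level in cholangiocyte-like nuclei. The 8 macrophage markers were all detected and summed to 12.7 and 19.4 CPM, 0.264 and 0.437% of their own level, and their part in the values of *Soat1*, *Mylip* and *Abcg1* was not tested. The 8 endothelial markers differed less, at 39.98 and 38.1 CPM, 0.277 and 0.319% of their own level. The 8 HSC markers summed to 25.8 and 28.4 CPM. When 443 and 449 hepatocyte-like nuclei with 2 or more cholangiocyte marker UMIs were left out, a choice made after seeing the data, the cholangiocyte markers summed to 29.1 and 40.4 CPM. The ratio of the synthesis sum was then 1.34, and 7 of the 9 genes were still called higher, against 9.12% of all genes tested. *Cyp51* came to 1.44, and *Sqle* had fewer than 50 UMIs.

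Of 35 other genes of sterol handling, 34 were tested in hepatocyte-like nuclei. Of these 6 were higher, against 9.69% of all genes tested, and 2 lower, against 12%, and their median log2 ratio was 0.07. *Vldlr*, a lipoprotein receptor, had the largest ratio, 5.31 [4.55 to 6.23], at 4.599 and 24.4 CPM. It was followed by *Cd36*, a scavenger and fatty acid receptor, at 1.98 [1.86 to 2.11], and *Gramd1b*, which moves sterol away from the plasma membrane, at 1.75 [1.49 to 2.06]. The smallest ratios were those of *Cyp7b1*, an oxysterol hydroxylase, at 49.96 and 20.3 CPM and a ratio of 0.407 [0.371 to 0.447], *Lrp1*, a lipoprotein receptor, at 0.593 [0.581 to 0.606], and *Cyp27a1*, a sterol hydroxylase, at 0.773 [0.756 to 0.7899]. *Cyp27a1* lay within the limit.

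Several transport and esterification genes stood highest outside hepatocyte-like nuclei. Hepatocyte RNA was found in every other type, where the 8 hepatocyte markers stood at a median of 12.6% to 26.9% of their hepatocyte-like level, and a gene of hepatocytes at or below such a share elsewhere reads as background. *Soat1* stood at 445 and 489 CPM in macrophage-like nuclei against 0.716 and 1.16 CPM in hepatocyte-like nuclei, 622 and 422 times the hepatocyte-like level. The hepatocyte-like level of *Soat1* was a smaller share of its macrophage-like level than the 0.264 and 0.437% of the macrophage markers, so it reads as background and the factors are no measure of its expression in hepatocytes. *Abcg1* stood at 258 and 356 CPM, 72.02 and 138 times that level. *Npc2*, which binds cholesterol in lysosomes, stood at 245 and 201 CPM, 19.3 and 14.4 times that level. All 3 were highest in macrophage-like nuclei in both libraries, and so was *Abca1*, at 1.92 and 3.12 times the hepatocyte-like level. *Mylip* was highest in endothelial-like nuclei, at 487 and 476 CPM, and so was *Stard4*, at 49.2 and 46.5 CPM. For *Mylip* this was 281 and 328 times the hepatocyte-like level. That level was a share of its endothelial-like level near the 0.277 and 0.319% of the endothelial markers. The hepatocyte-like counts of *Mylip* were thus near the level of background.

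*Abcg5*, *Abcg8* and *Soat2* were highest in hepatocyte-like nuclei, as were *Npc1*, *Insig1*, *Insig2*, *Scap* and *Sc5d*. In macrophage-like nuclei *Abcg5* stood at 0.0372 and 0.0155 times its hepatocyte-like level, *Abcg8* at 0.0399 and 0.0577 times and *Soat2* at 0.0579 and 0.07095 times, all under the share of hepatocyte markers there. *Sqle* was highest in cholangiocyte-like nuclei, at 67.9 and 33.9 CPM on 17 and 27 UMIs, 184 and 27.6 times the hepatocyte-like level. After thinning to 1000 UMIs, *Soat1* was detected in 36.97% and 35.5% of macrophage-like nuclei and in 0.0346% and 0.09005% of hepatocyte-like nuclei. Before thinning, at median depths of 2157 and 1340 UMIs in macrophage-like nuclei, these shares were 57.5% and 44.5% against 0.431% and 0.717%. *Soat1* was thus detected far more often in macrophage-like nuclei before and after thinning.

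**Figure D2:**
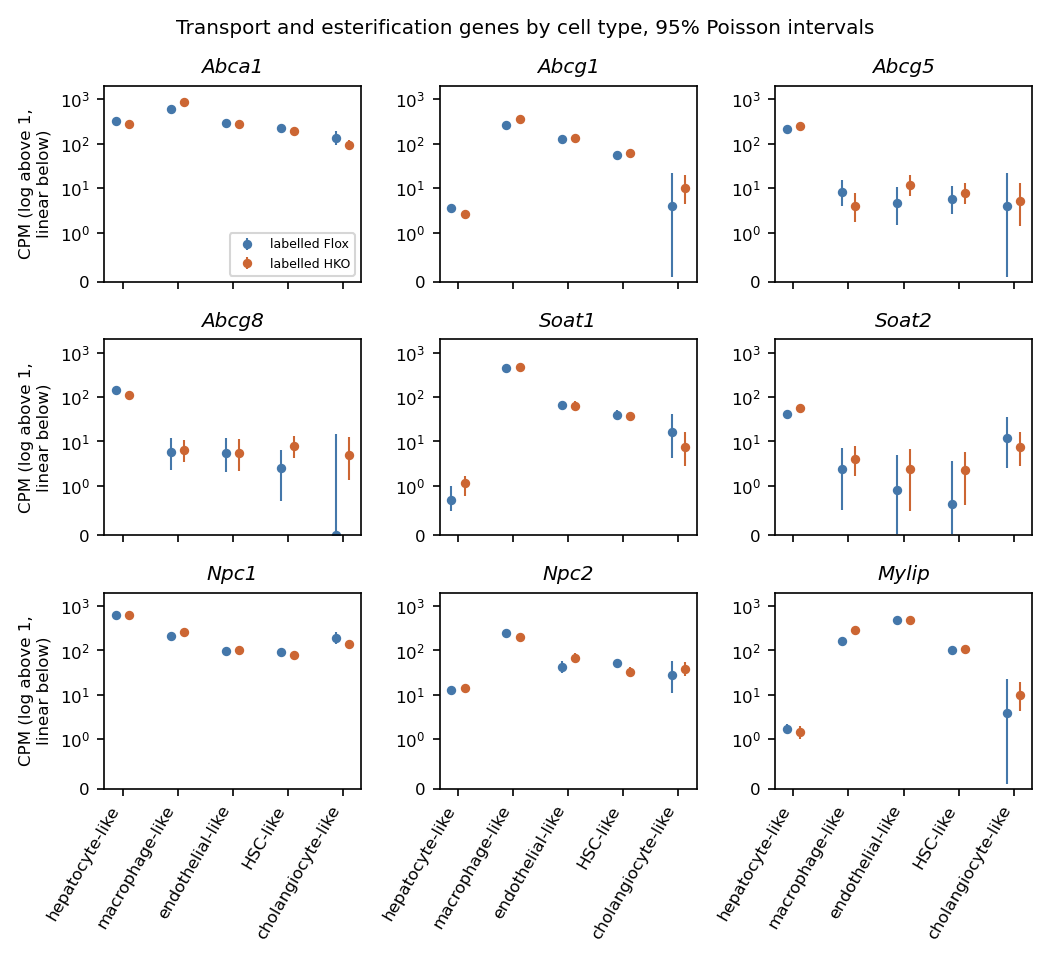
CPM of transport and esterification genes by cell type for the libraries labelled Flox and HKO, with bars for 95% Poisson intervals, on an axis that is logarithmic above 1 CPM and linear below. *Soat1* and *Abcg1* stand highest in macrophage-like nuclei, *Abcg5* and *Soat2* in hepatocyte-like nuclei and *Mylip*, at 487 and 476 CPM, in endothelial-like nuclei.

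In macrophage-like nuclei *Abca1* and *Abcg1* stood higher in the library labelled HKO, within the fold limit by CPM and past it under TMM scaling, while the interval of the synthesis sum included 1. *Abca1* stood at 618 and 886 CPM (ratio 1.43 [1.32 to 1.56]), and *Abcg1* at 258 and 356 CPM, a ratio of 1.38 [1.21 to 1.58]. The efflux sum was 890.0 and 1252 CPM (ratio 1.41 [1.31 to 1.51]), and the synthesis sum 267 and 283 CPM, a ratio of 1.06 [0.926 to 1.22]. Of 15 members tested, 1 was higher, against 5.28% of all genes tested, and 0 were lower, against 11.9%. The gene called was *Mylip*, at 166 and 284 CPM and a ratio of 1.71 [1.45 to 2.01]. *Npc1* had a ratio of 1.23 [1.06 to 1.43], *Npc2* of 0.822 [0.707 to 0.957] and *Soat1* of 1.098 [0.988 to 1.22], all within the limit. TMM scaling moved all ratios of macrophage-like nuclei by 0.13 and of T cell-like nuclei by 0.10 on the log2 scale, and brought the efflux ratio of macrophage-like nuclei to 1.54, that of *Abca1* to 1.57 and that of *Abcg1* to 1.51. Macrophage-like nuclei made up 6.12% and 14.4% of the nuclei kept, and the part that the mix of macrophage states plays in these ratios was not tested.

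**Figure D3:**
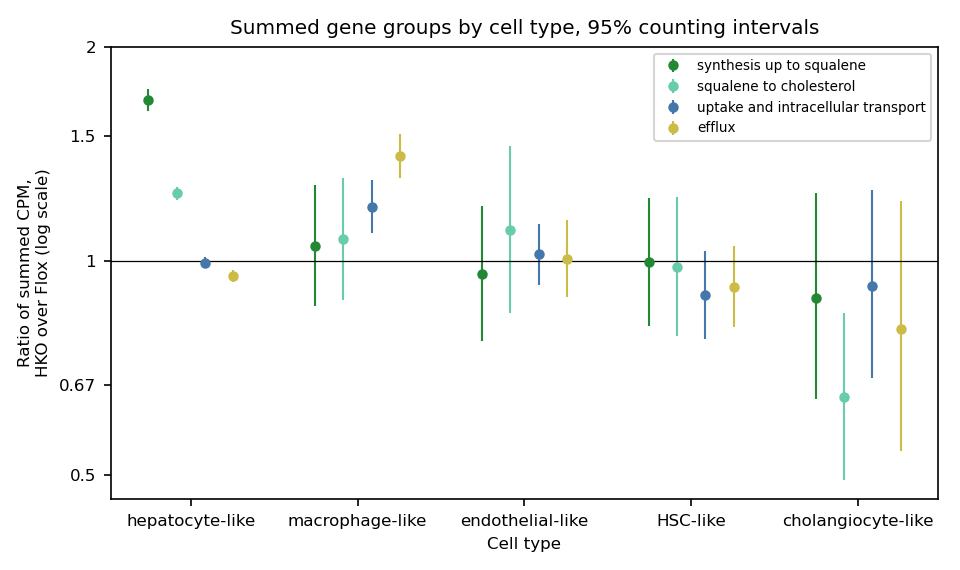
Ratio of summed CPM, library labelled HKO over Flox, on a log axis for gene groups by cell type, with bars for 95% counting intervals. In hepatocyte-like nuclei the enzymes up to squalene lie highest, at 1.69, and in macrophage-like nuclei the efflux genes, at 1.41.

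The other types gave few members with 50 UMIs. In endothelial-like nuclei 2 of 14 were higher, against 4.96% of all genes tested, and 0 were lower, against 8.87%. These were *Npc2*, at 42.8 and 69.3 CPM and a ratio of 1.62 [1.12 to 2.36], and *Insig1*, at 1.61 [0.938 to 2.84], which turned to 0.951 when each nucleus was typed by its own markers. *Insig1* stood there at 0.214 and 0.227 times its hepatocyte-like level, beside a median of 24.7% and 16.7% for the hepatocyte markers, so its counts there were near the level of background. In HSC-like nuclei 0 of 13 were higher, against 5.64%, and 1 was lower, against 12%. This was *Npc2*, at 52.04 and 32.5 CPM and a ratio of 0.625 [0.439 to 0.887]. *Npc2* was thus called in opposite directions in these types. In cholangiocyte-like nuclei 1 of 5 was higher, against 11.2%, and 1 lower, against 11.1%. They were *Srebf2*, on 8 and 47 UMIs and at 1.85 [0.865 to 4.53], and *Ggps1*, on 25 and 52 UMIs and at 0.654 [0.399 to 1.1001], and both intervals included 1. The synthesis sum there was 539 and 397 CPM on 135 and 316 UMIs, a ratio of 0.736 [0.5999 to 0.907], below 1 where that of hepatocyte-like nuclei was above it. Hepatocyte markers stood there at a median of 21.8% and 15.8% of their hepatocyte-like level, with *Alb* at 110% and 64.3%. *Sc5d* had a ratio of 0.759 there and of 1.296 with each nucleus typed by its own markers. The sum was not tried under other settings, and the part of hepatocyte RNA in it was not tested.

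Hepatocytes near the central vein and near the portal tract differ in metabolism, and zones were compared within each library. Hepatocyte-like nuclei were classed by the pericentral share of their zone-marker UMIs, as pericentral at 0.75 or more, periportal at 0.25 or less and mid in between. There were 1398 and 801 pericentral, 1870 and 1138 mid and 2485 and 2248 periportal nuclei, while 45 and 276 had fewer than 5 such UMIs. A class is a range of a score and not a cell type. Median depths were 7075.5 and 5009 UMIs in pericentral and 7202 and 6253 in periportal nuclei.

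Several synthesis enzymes stood higher in pericentral nuclei in both libraries. In the library labelled Flox, 7 of 29 members tested were at least 1.5-fold higher in the pericentral class, against 7.57% of all genes tested, and 2 in the periportal class, against 10.1%. In the library labelled HKO these were 10 of 27, against 6.69%, and 1, against 7.27%. The libraries shared 6 pericentral genes, 85.7% of the 7 and 60% of the 10, namely *Fdft1*, *Fdps*, *Hmgcs1*, *Hsd17b7*, *Insig2* and *Msmo1*. The overlap of calls over all genes was not taken, so whether this sharing is particular to the members cannot be told. After thinning to 1000 UMIs, 17 and 19 members were tested and 4 were pericentral in each library, against 8.71% and 8.38% of all genes tested.

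*Hmgcs1* stood at 16.98, 36.2 and 42.6 CPM in periportal, mid and pericentral nuclei labelled Flox, and at 41.7, 70.2 and 84.5 CPM in those labelled HKO. Its ratios of pericentral over periportal were 2.51 [2.17 to 2.91] and 2.02 [1.77 to 2.31], so that the level climbed toward the central vein in both. Those of *Msmo1* were 2.15 [1.88 to 2.45] and 2.15 [1.85 to 2.49], those of *Fdft1* 1.68 [1.31 to 2.16] and 2.63 [1.98 to 3.47], and those of *Hsd17b7* 1.54 [1.32 to 1.79] and 1.67 [1.37 to 2.04]. *Acat2* passed the limit in the library labelled Flox alone, at 1.82 [1.39 to 2.38] against 1.43 [1.03 to 1.96]. *Cyp51*, *Nsdhl* and *Idi1* passed it in the library labelled HKO alone, at 1.904 [1.33 to 2.71], 1.63 [1.04 to 2.51] and 1.62 [1.14 to 2.29], and *Idi1* came to 0.836 after thinning. The difference between the libraries was not tested.

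*Sc5d*, *Dhcr7* and *Ebp* passed the limit toward periportal nuclei in 1 library each, and *Dhcr7* lay on that side in both. *Sc5d* stood at 354, 258 and 229 CPM from periportal to pericentral nuclei labelled Flox, a ratio of 0.648 [0.618 to 0.6798], and at 395, 358 and 375 CPM in those labelled HKO, a ratio of 0.949 [0.898 to 1.003]. *Dhcr7*, the sterol reductase of the last step of one branch, had ratios of 0.615 [0.515 to 0.731] and 0.681 [0.532 to 0.862]. *Ebp* had ratios of 0.972 [0.851 to 1.11] and 0.661 [0.512 to 0.844]. The periportal calls were thus *Sc5d* and *Dhcr7* in one library and *Ebp* in the other, and here too the overlap over all genes was not taken. Summed over the 19 synthesis enzymes, the ratio of pericentral over periportal was 0.919 [0.89003 to 0.949] and 1.18 [1.14 to 1.22]. It was 1.46 [1.36 to 1.55] and 1.57 [1.47 to 1.68] for the enzymes up to squalene and 0.805 [0.776 to 0.835] and 1.05 [1.003 to 1.097] for those after it. *Sc5d* weighed most in the sum of the 19, at 354 of 612 CPM in periportal and 229 of 562 CPM in pericentral nuclei labelled Flox. Of the synthesis enzymes tested, 12 of 17 and 12 of 16 had ratios above 1. After squalene these were 4 of 9 and 6 of 9. The share of all genes with ratios above 1 was not taken.

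Among efflux and transport genes, *Abca1* leaned to pericentral nuclei in both libraries, at 1.34 [1.29 to 1.402] and 1.68 [1.58 to 1.78], of which the second passed the limit. *Abcg5* and *Abcg8* leaned to periportal nuclei within the limit, *Abcg5* at 0.819 [0.774 to 0.866] and 0.702 [0.651 to 0.756] and *Abcg8* at 0.813 [0.759 to 0.872] and 0.802 [0.718 to 0.894]. *Npc1* leaned to pericentral nuclei, at 1.26 [1.22 to 1.295] and 1.37 [1.32 to 1.43].

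The INSIG genes differed between the libraries by amounts that depended on the zone. *Insig2* stood at 119.9, 353 and 331 CPM from periportal to pericentral nuclei labelled Flox, and at 139, 205 and 213 CPM in those labelled HKO. Its HKO over Flox ratio was 1.16 [1.09 to 1.23] in periportal, 0.5799 [0.547 to 0.614] in mid and 0.642 [0.596 to 0.691] in pericentral nuclei. The lower level of *Insig2* in the library labelled HKO was thus found in nuclei classed as mid and pericentral and not as periportal. The classes were not matched between the libraries. The zone marker *Cyp2e1* stood at 1986 and 1313 CPM in pericentral and 246 and 401 CPM in periportal nuclei. *Glul* stood at 1445 and 2372 CPM in pericentral and *Sds* at 471 and 493 CPM in periportal nuclei. Ratios of HKO over Flox within a class were not tried under other zone limits, and the part of class make-up in them was not tested. *Insig1* stood at 109, 83.1 and 82.05 CPM in nuclei labelled Flox and at 132, 139 and 184 CPM in those labelled HKO, with ratios of 1.21 [1.14 to 1.29], 1.67 [1.54 to 1.82] and 2.24 [2.03 to 2.47]. It leaned to periportal nuclei in one library, at 0.755 [0.696 to 0.819], and to pericentral nuclei in the other, at 1.39 [1.28 to 1.51].

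*Fdps* differed between the libraries by a like factor in every class. It stood at 10.4, 15.8 and 18.7 CPM from periportal to pericentral nuclei labelled Flox and at 46.4, 71.2 and 93.1 CPM in those labelled HKO, with ratios of 4.47 [3.81 to 5.26], 4.52 [3.89 to 5.26] and 4.98 [4.18 to 5.95]. The intervals of the 3 ratios overlapped. The synthesis sum had HKO over Flox ratios of 1.21 [1.18 to 1.24], 1.401 [1.35 to 1.45] and 1.55 [1.49 to 1.61], all above 1 and without overlap between the intervals. For the enzymes up to squalene the ratios were 1.719 [1.623 to 1.820], 1.712 [1.608 to 1.823] and 1.852 [1.718 to 1.996], and the intervals overlapped. For those after squalene they were 1.098 [1.067 to 1.131], 1.296 [1.246 to 1.349] and 1.433 [1.362 to 1.506], without overlap. *Sc5d*, which weighed most in the synthesis sum, had ratios of 1.117, 1.390 and 1.636. The efflux sum had ratios of 1.004 [0.978 to 1.03], 0.911 [0.882 to 0.942] and 1.05 [1.003 to 1.09].

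**Figure D4:**
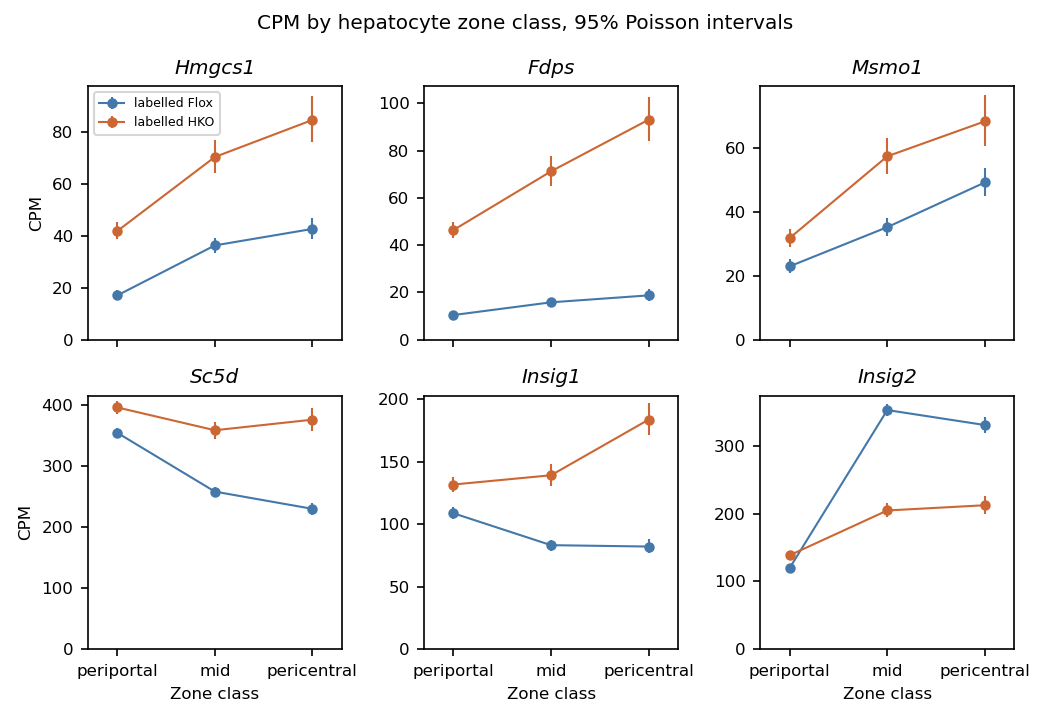
CPM of members by hepatocyte zone class in the libraries labelled Flox and HKO, with bars for 95% Poisson intervals. *Insig2* labelled Flox stands at 119.9 CPM in periportal and 353 CPM in mid nuclei, and *Fdps* lies higher in nuclei labelled HKO in every class.

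The study describes disease-associated hepatocytes (daHep), and hepatocyte-like nuclei were split by 6 daHep markers (*Nrg1*, *Anxa2*, *Gdf15*, *Sox4*, *Klf6* and *Jun*) after thinning to 1000 UMIs. Nuclei with UMIs of 2 or more of them numbered 115 of 5782 and 229 of 4442, of which 103 and 182 had exactly 2, and 1018 and 1030 others had 1. The split is a range of a score and not a type. In these nuclei over the rest, the synthesis sum had a ratio of 1.13 [1.04 to 1.23] for Flox and 1.07 [1.01 to 1.14] for HKO. *Hmgcs1* had ratios of 1.43 [1.01 to 1.97] and 1.46 [1.199 to 1.77], and *Fdps* of 0.992 [0.525 to 1.71] and 0.861 [0.673 to 1.09]. *Hmgcs1* thus stood higher in nuclei with daHep markers in both libraries, and for *Fdps* the intervals included 1. *Sc5d* had ratios of 1.19 [1.06 to 1.33] and 1.14 [1.05 to 1.23], and *Cyp51* of 1.15 [0.371 to 2.73] and 1.82 [1.05 to 2.95]. *Msmo1*, at 1.246 [0.878 to 1.72] and 0.681 [0.49 to 0.923], went the other way for HKO. *Hmgcs1* stood at 42.2 and 82.1 CPM in nuclei with daHep markers, beside 42.6 and 84.5 CPM in pericentral nuclei. The split was not matched for zone, and the part of zone in its ratios was not tested. The efflux sum had ratios of 0.964 [0.888 to 1.04] and 0.792 [0.734 to 0.853], and *Abcg8* of 0.757 [0.615 to 0.923] and 0.765 [0.632 to 0.919]. *Insig1* lay on opposite sides of 1, at 1.46 [1.21 to 1.74] and 0.853 [0.727 to 0.994].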

How the data were processed

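Nuclei were sorted from snap-frozen liver, and 3′ libraries were made with the 10x Genomics kit. The authors deposited raw UMI counts per gene and barcode, made with Cell Ranger 8.0.1 on GRCm38 without intronic reads. The deposited barcodes, of at least 500 UMIs each, still held nuclei with under 300 genes, so the filters of the study had not been applied.

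Nuclei with at least 300 genes and genes found in at least 3 nuclei were kept. Doublets were removed with Scrublet (scanpy 1.11.5) at 0.8% per 1000 barcodes of a library. Clustering used the integrated libraries (Seurat 5.3.0 under R 4.3.3, with 3000 variable features less the 33 genes and *Themis*, 15 components, resolution 0.2). A cluster was named when at least 3 markers of a type, with 10 or more UMIs, stood 1.5-fold above the median cluster (prior 5 CPM) and no rival type reached 80% of its markers. The median cluster as the reference and the form of the typing of single nuclei were both chosen after first results were seen. The 33 genes and the lists were chosen with earlier results of these data known.

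Counts were summed per type, zone class and library. CPM have exact Poisson intervals, ratios exact conditional binomial intervals and shares Clopper-Pearson intervals (scipy 1.17.1), at 95%. All cover counting error only, since UMIs of pooled animals in 1 library per genotype give no replicate spread. The ratio intervals, the fold call and the thinning were tested on simulated counts, and the other steps were not. Named genes were all 33, plus the 3 highest and 3 lowest ratios of the other sterol genes tested. TMM came from edgeR 4.0.16. Other filters, typing, scaling, thinning, zone limits and fold limits were tried.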

Additional observations from a re-analysis of the deposited data

Results flagged for a closer look

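Values are given here because the ratios lay on opposite sides of 1, with counting intervals that excluded 1, in 2 cell types, libraries or zone classes. None of these differences was tested, since each group has 1 library.

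Between cell types, the efflux sum had an HKO over Flox ratio of 0.953 in hepatocyte-like and 1.41 in macrophage-like nuclei. *Abca1* had ratios of 0.883 in hepatocyte-like, 0.842 in HSC-like and 1.43 in macrophage-like nuclei, and *Abcg1* of 0.718 in hepatocyte-like and 1.38 in macrophage-like nuclei. *Npc1* had ratios of 0.971 in hepatocyte-like and 1.23 in macrophage-like nuclei. *Npc2* had ratios of 0.625 in HSC-like, 0.822 in macrophage-like and 1.62 in endothelial-like nuclei. The synthesis sum had a ratio of 1.34 in hepatocyte-like and 0.736 in cholangiocyte-like nuclei, and the enzymes after squalene of 1.246 and 0.644. The sums of cholangiocyte-like nuclei hold hepatocyte RNA, more of it by the marker medians in the library labelled Flox, and were not tried under other settings.

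Between the libraries, the pericentral over periportal ratio of the synthesis sum was 0.919 for Flox and 1.18 for HKO. For the enzymes after squalene it was 0.805 and 1.05, and for *Insig1* 0.755 and 1.39. *Sc5d* weighed most in both sums, with ratios of 0.648 for Flox and 0.949 for HKO. Of the synthesis enzymes tested, 12 of 17 for Flox and 12 of 16 for HKO had ratios above 1, and the share of all genes was not taken.

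Between zone classes, the HKO over Flox ratio of *Insig2* was 0.642 in pericentral, 0.58 in mid and 1.16 in periportal nuclei. That of *Abca1* was 1.10 in pericentral, 0.883 in mid and 0.877 in periportal nuclei, and that of *Npc1* 1.05 in pericentral and 0.965 in periportal nuclei. The regulators summed to 0.816 in mid and 1.08 in periportal nuclei, and the efflux genes to 1.05 in pericentral and 0.911 in mid nuclei. The zone classes were not matched between the libraries.

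In nuclei with daHep markers over the rest, *Insig1* had a ratio of 1.46 for Flox and 0.853 for HKO. *Npc1* had ratios of 0.908 and 1.13, and the genes of uptake and intracellular transport summed to 0.905 and 1.10.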

How the results depend on the processing

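In hepatocyte-like nuclei the synthesis ratio was 1.381 with nuclei thinned to 1000 UMIs, 1.381 with zone classes weighted equally and 1.27 without *Fdps*, the last chosen after seeing the data. The ratio of the enzymes up to squalene was 1.782 thinned, 1.768 with equal zone weights and 1.361 without *Fdps*. The efflux ratio was 0.9224 thinned and 0.984 with equal zone weights. In macrophage-like nuclei the efflux ratio was 1.543 under TMM scaling. The side of 1 held for these 4 ratios in each setting that gave a value.

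At a fold limit of 2, 3 of the 33 genes were higher, against 4.07% of all genes tested, and 0 lower, against 4.195%. At a limit of 5/4 these were 16, against 20.4%, and 5, against 25.2%. No gene was lower (0, where the report has 1) with doublets kept, without *Malat1* and mitochondrial genes, or with equal zone weights. After thinning 27 of the 33 genes had 50 UMIs and 9 were called higher, against 8.62% of all genes tested. Of these 6 were among the 9 of the report and the others were the synthesis enzymes *Fdft1*, *Lss* and *Msmo1*, while *Mvd*, *Soat1* and *Sqle* had too few UMIs. The gene called lower after thinning was *Nsdhl* (0.6508). *Soat1* came to 2.603 after thinning. The cause was not tested in any of these.

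After thinning, the ratio of pericentral over periportal for the synthesis sum was 0.9578 for Flox and 1.087 for HKO, 4 of 17 and 4 of 19 members tested were pericentral, against 8.71% and 8.38% of all genes, and 1 in each was periportal, against 10.3% and 9.01%. With zone limits of 0.6 and 0.4, periportal members numbered 0 of 30 for Flox and 2 of 28 for HKO, against 8.36% and 6.25%, and without the most abundant markers 2 of 27 for HKO, against 6.87%. Of values past the fold limit in the report, the ratio turned for *Idi1* by zone in the library labelled HKO (0.8362 after thinning) and for *Insig1* in endothelial-like nuclei (0.9507 with each nucleus typed by its own markers). Among all 713 alternative values of single genes, 51 lay on the other side of 1, 2 of them these and 49 for values within the limit. The latter include *Mylip* in hepatocyte-like nuclei, at 0.8346 in the report and 2.15 with doublets kept, 1.61 with nuclei typed by their own markers and 1.157 thinned, and *Nsdhl* as given above.

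No paired analysis was possible because each group has 1 library. With doublets kept, the macrophage and B cell clusters stayed unnamed and gave no value. Depth limits *Sqle*, *Mvd*, *Soat1* and *Mylip* in hepatocyte-like nuclei and most members in the smaller types.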
